A study of Mus musculus with 12 samples.

Results

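The genes described here encode the nuclear part of oxidative phosphorylation, which comprises respiratory chain complexes I to IV and ATP synthase. They were chosen by symbol: every gene starting with Ndufa, Ndufb, Ndufc, Ndufs, Ndufv, Uqcr or Atp5, the Cox4 to Cox8 genes with a suffix, and Sdha, Sdhb, Sdhc, Sdhd and Cyc1. This gave 90 members among the 19938 genes tested. Complex I had 6 core subunits, 28 accessory subunits and 7 assembly factors whose symbols begin with Ndufaf. Complex II had 4 members, complex III 9, complex IV 19 and ATP synthase 17. Each was measured by 1 probe set with a single gene symbol, the brightest where a gene had several, and 17 members had several.

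The data are 12 arrays of RNA from sorted olfactory mucosa cells of 18 mice of both sexes, aged 7 to 12 weeks, which all carried the S100a5-tauGFP reporter. Odor mice gave 3 arrays of GFP-positive and 3 of GFP-negative cells, and so did vehicle mice. All mice spent 40 hours alone in a clean air chamber at 3.1 L per minute. From 26 hours on, odor mice received 10-second pulses of a citrus accord at 20-minute intervals, and vehicle mice received filtered air in the same way; the series title gives the accord as 5%. Each array held RNA of cells from 3 mice, so both fractions of a pool came from the same animals and the 6 pools cover all mice. GFP marks cells that use S100a5, a calcium-binding protein gene known to be switched on by activity in sensory neurons of the nose, and the labels do not say how the reporter was built. Where p-values are given, they rest on the spread between arrays of a group, each from its own pool. Both fractions of a pool were fitted as separate samples, without their pairing, except where a pool block is named.

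Respiratory chain complexes pass electrons from NADH and succinate to oxygen and pump protons across the inner mitochondrial membrane, and ATP synthase uses the proton gradient to make ATP. Complex I takes electrons from NADH, complex II from succinate, complex III passes them to cytochrome c, and complex IV passes them to oxygen. Most subunits are nuclear genes and a smaller set is encoded by mitochondrial DNA, which lies outside the rule used here. In olfactory sensory neurons, odor detection and the ion gradients that reset it both draw on ATP.

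The sort was checked against markers of cell types. The 12 leukocyte markers averaged 7.64 to 8.10 on the 6 GFP-positive arrays and 11.4 to 11.9 on the 6 GFP-negative arrays, on the deposited log2 scale. All 12 were lower in GFP-positive cells in both treatments, with differences of -4.27 in odor mice and -4.31 in vehicle mice for Ptprc, the pan-leukocyte phosphatase CD45. All 6 sustentacular and all 5 microvillous cell markers were lower too, as were both erythroid markers measured, which averaged 7.00 to 7.32 on GFP-positive arrays and 8.97 to 9.52 on GFP-negative arrays. Of 8 immature neuron markers 3 were higher and 4 lower in each treatment. Of 4 respiratory ciliated cell markers 3 were higher and 1 lower in each treatment, with median differences of 0.56 in odor mice and 0.52 in vehicle mice, while the mean of all 4 was 8.805 to 8.998 on GFP-positive arrays and 8.574 to 8.979 on GFP-negative arrays. The 11 markers of mature olfactory sensory neurons averaged 12.7 to 12.8 on GFP-positive arrays and 12.1 to 12.4 on GFP-negative arrays, and 10 of 11 were higher in GFP-positive cells in each treatment. Omp, the olfactory marker protein gene of mature neurons, was 13.45 to 13.51 on GFP-positive arrays and 13.04 to 13.29 on GFP-negative arrays, so the GFP-negative fraction held mature neurons as well. S100a5 itself was higher in GFP-positive cells of odor mice by 0.31 (SE 0.10, limma adjusted p = 0.0166; 0.0796 after the cyclic loess scaling described below) and differed by 0.19 (SE 0.10, adjusted p = 0.123) in vehicle mice. Muscle markers averaged 6.95 to 7.09 on GFP-positive arrays and 6.86 to 7.03 on GFP-negative arrays.

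Promoters of members whose transcripts are described below are shown first, because respiratory chain genes are known for shared promoter motifs. NRF1, a nuclear respiratory factor, and the ETS factor GABP (nuclear respiratory factor 2) are textbook regulators of these genes, as are YY1 and the estrogen-related receptors (ERR). RefSeq windows of 250 bases before to 50 after the start (GRCm38.p6) were held for 73 of the 90 members, in 78 windows. Capitals mark the NRF1 spelling, GCGCA and GCGC with any 1 base between them, in Ndufaf4, Ndufaf5 and Atp5g2 and the YY1 spelling AANATGGCG in Ndufa9. Ndufaf4 (chr4:24897833-24898132, plus strand) and Ndufaf5 (chr2:140170396-140170695, plus strand) are assembly factor genes that were higher in GFP-positive cells, with the motif beginning at -113 and at 16 from the annotated start. Ndufa9 (chr6:126849095-126849394, minus strand) was higher as well, and its YY1 spelling begins at 29. Atp5g2 (chr15:102670998-102671297, minus strand) was lower in GFP-positive cells and has the NRF1 spelling at -42. The window of Cox7a2l, the other member lower in both treatments, held 0 matches of the 4 spellings searched and is not printed.
Ndufaf4: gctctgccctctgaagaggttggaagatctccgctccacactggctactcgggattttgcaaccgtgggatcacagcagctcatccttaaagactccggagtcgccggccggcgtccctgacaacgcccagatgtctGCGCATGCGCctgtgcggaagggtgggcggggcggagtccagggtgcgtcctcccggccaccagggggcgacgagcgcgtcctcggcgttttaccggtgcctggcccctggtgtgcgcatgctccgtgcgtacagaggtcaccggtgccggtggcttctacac
Ndufaf5: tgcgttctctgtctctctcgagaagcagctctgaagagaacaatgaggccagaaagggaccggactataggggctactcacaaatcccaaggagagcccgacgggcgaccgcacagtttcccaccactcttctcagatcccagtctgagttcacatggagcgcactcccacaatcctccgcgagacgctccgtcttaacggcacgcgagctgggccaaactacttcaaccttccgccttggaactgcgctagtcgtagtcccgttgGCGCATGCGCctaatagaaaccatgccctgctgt
Ndufa9: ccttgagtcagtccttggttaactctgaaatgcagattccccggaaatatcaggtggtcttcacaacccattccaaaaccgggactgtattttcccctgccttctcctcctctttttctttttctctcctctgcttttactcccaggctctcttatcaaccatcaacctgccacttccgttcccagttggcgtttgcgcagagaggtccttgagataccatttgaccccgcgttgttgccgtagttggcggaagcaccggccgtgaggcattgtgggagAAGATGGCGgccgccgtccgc
Atp5g2: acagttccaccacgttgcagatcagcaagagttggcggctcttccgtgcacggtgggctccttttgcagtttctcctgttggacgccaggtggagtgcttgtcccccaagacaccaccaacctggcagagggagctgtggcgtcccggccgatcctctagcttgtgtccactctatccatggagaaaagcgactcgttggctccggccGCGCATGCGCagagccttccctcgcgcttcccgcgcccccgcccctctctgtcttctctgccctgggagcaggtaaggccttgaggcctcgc

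On both strands, the NRF1 spelling was found in 18 of 73 members (24.7%) and in 5.19% of the 27025 genes with such a window. The ETS spelling CCGGAAG was found in 18 members (24.7%) and in 9.93% of all genes, the YY1 spelling in 10 (13.7%) and 2.76%, and the ERR spelling TCAAGGTCA in 2 (2.74%) and 0.47%. At least 1 of the 4 was found in 40 members (54.8%) and in 16.2% of all genes, and in 0 members did matches of 2 motifs overlap. Members' windows had a median GC content of 58.3%, against 52.8% for all genes. Few members were lower in the sort comparison described next, so the motifs can be set beside its direction only as counts, with no test. The 18 members with the NRF1 spelling included 10 higher and 1 lower (Atp5g2) in GFP-positive cells of at least 1 treatment. Those with the ETS spelling included 12 higher and 0 lower, and those with the YY1 spelling 7 higher and 0 lower. With the ERR spelling 2 were higher and 0 lower. Of all members, with or without a window, 46 were higher in both treatments, 10 in odor mice only and 3 in vehicle mice only. Lower members were 2 in both treatments and 2 in vehicle mice only. Whether members with a motif were higher more often than other members was not tested. With the NRF1 spelling the median difference was 0.25 in odor mice, against 0.30 in members without it, and 0.24 in vehicle mice, against 0.28 in members without it. For the ETS spelling the medians were 0.22 against 0.31 in odor mice and 0.21 against 0.30 in vehicle mice. For YY1 they were 0.24 against 0.30 and 0.26 against 0.28. For ERR, with 2 members, they were 0.33 against 0.30 and 0.25 against 0.28.

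GFP-positive cells had more of most of these transcripts than GFP-negative cells of the same pools. In odor mice 56 of 90 members were higher in GFP-positive cells, where 33.5% of all genes tested were higher, and 2 were lower, where 18.7% were. In vehicle mice 49 were higher, where 29.9% of all genes were, and 4 were lower, where 18.2% were. Over the 90 members the median log2 difference came to 0.29 in odor mice and to 0.28 in vehicle mice, beside 0.13 and 0.06 over all genes. The differences ran from -0.44 to 0.74 in odor mice and from -0.47 to 0.78 in vehicle mice. Differences are GFP-positive minus GFP-negative, fitted with limma over all genes, and a gene is counted at an adjusted p below 0.05. In sorted bulk samples, fewer cells of a type and less RNA per cell cannot be told apart. The leukocyte, erythroid and mature neuron markers above moved with this comparison in every pool, and 3 of 4 ciliated cell markers moved with it, and their part in it was not tested.

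**Figure D1:**
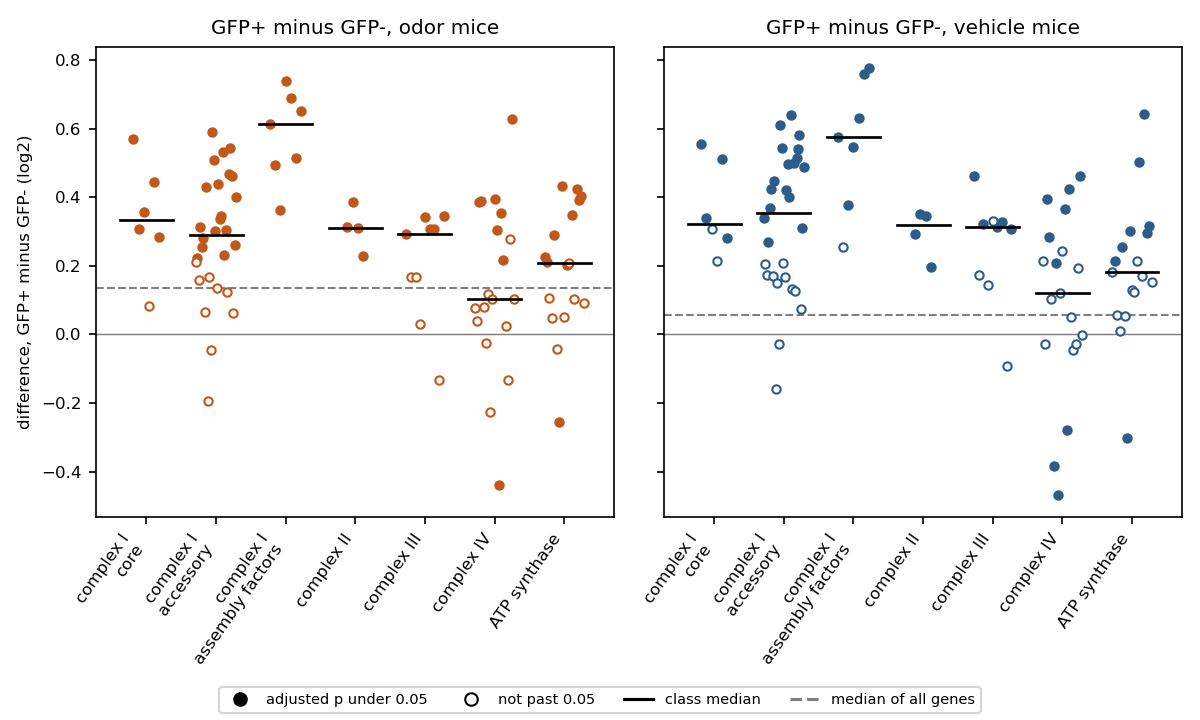
Differences between GFP-positive and GFP-negative cells (log2, y axis) for each of the 90 members by complex (x axis), in odor mice on the left and vehicle mice on the right. Filled points passed an adjusted p of 0.05, open points did not, short bars are class medians and the dashed line is the median of all genes. Complex I assembly factors have the highest class median, 0.61 in odor mice and 0.58 in vehicle mice, and complex IV the lowest, 0.10 and 0.12.

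The shift was smaller under another scaling of the arrays. Cyclic loess, which fits a curve between arrays over signal level, moved the median of all genes to 0.02 in odor mice, from the 0.13 of the deposited values. It left 26 members higher and 5 lower in odor mice, and 28 higher and 7 lower in vehicle mice. Over all genes it gave 20.7% higher and 24.5% lower in odor mice, and 21.9% and 22.5% in vehicle mice. Relative to the median of all genes, the members' median was 0.15 in odor mice as deposited and 0.11 with cyclic loess, and in vehicle mice it was 0.23 and 0.12. Brightness also bears on these counts. Between their quartiles the members had mean values of 8.59 to 10.6, and of the 5125 other genes in that range 48.9% were higher and 17.6% lower in odor mice, and 53.3% and 14.8% in vehicle mice. Of the 44 members in the range, 34 (77.3%) were higher and 1 lower in odor mice, and 32 (72.7%) were higher and 1 lower in vehicle mice. With cyclic loess those members were higher in 16 (36.4%) and 15 (34.1%) cases and lower in 2 each, and the other genes of the range were higher in 33.2% and 34.1% and lower in 27.5% and 25.4%. So with that scaling the share of members called higher lay close to that of equally bright genes, and 4.55% of these members were called lower in each treatment. Their median differences were 0.155 in odor mice and 0.153 in vehicle mice, against 0.04 and 0.06 for the other genes of the range.

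**Figure D2:**
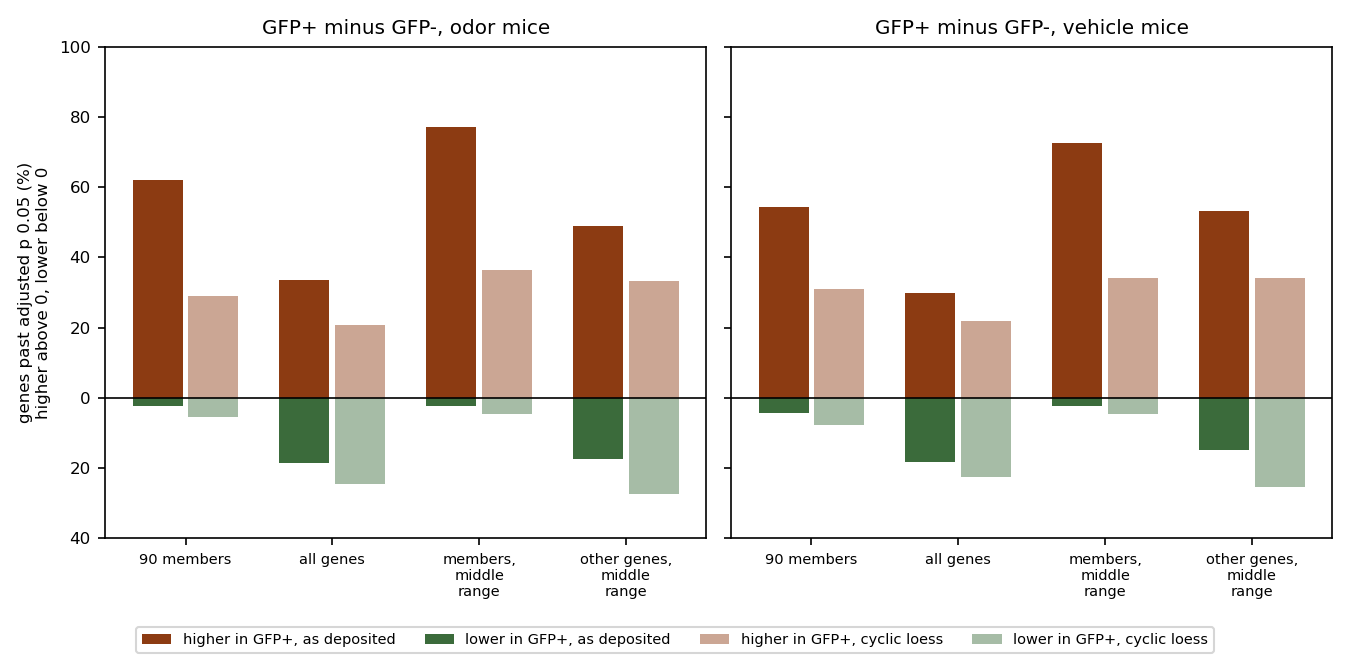
Percent of genes past an adjusted p of 0.05 (y axis, higher in GFP-positive cells above 0 and lower below 0) among the 90 members, all genes, the 44 members with mean values between 8.59 and 10.6, and the 5125 other genes of that range. Dark bars are the values as deposited and pale bars are after cyclic loess, with odor mice on the left and vehicle mice on the right. As deposited, 62.2% of members in odor mice and 54.4% in vehicle mice were higher, and after cyclic loess 28.9% and 31.1%.

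The 2 treatments use different mice, and their calls were largely shared. Of the members higher in GFP-positive cells, 46 were so in both treatments, which is 46 of 56 in odor mice and 46 of 49 in vehicle mice. Atp5g2 and Cox7a2l were lower in both, and 27 members passed in neither. The overlap of calls was not counted over all genes, so the sharing is not shown to be particular to the members. GFP-positive values were above GFP-negative values in all 6 pools for 68 members, where 36.1% of all genes were, and below in all 6 for 5 members, where 20.2% of all genes were. Those 5 were Atp5g2, Cox7a2l, Cox6b2, Ndufa6 and Uqcrh. The members' median difference within a pool was 0.25, 0.29 and 0.27 in odor replicates 2, 3 and 4, and 0.30, 0.17 and 0.35 in vehicle replicates 1, 2 and 4. The median of all genes was above 0 in each pool too, at 0.13, 0.09 and 0.17 in odor mice and 0.07, 0.09 and 0.03 in vehicle mice.

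Which calls were firm was read from 17 alternatives of scaling, blocks, filters and left-out arrays. Of the higher calls, 26 of 56 in odor mice and 28 of 49 in vehicle mice held in all 17, and these were the same calls that held with cyclic loess. In odor mice they were 6 assembly factors, 8 accessory and 2 core subunits of complex I, Sdhb, Uqcrc2, Uqcrq, Cox5a, Cox5b, Cox7a1, Ndufa4, Atp5g3, Atp5mpl and Atp5o. In vehicle mice they were 5 assembly factors, 13 accessory and 2 core subunits of complex I, Sdhc, Cyc1, Uqcr11, Uqcrc2, Cox5a, Ndufa4, Atp5k and Atp5md. The other higher calls named below did not pass with cyclic loess, and many were also lost without 1 array or another.

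Complex I assembly factors, which bring the subunits together and are not part of the finished enzyme, had the largest class median. All 7 were higher in GFP-positive cells of odor mice (median 0.61) and 6 of 7 in vehicle mice (median 0.58). With cyclic loess 6 and 5 of the 7 were higher, with medians of 0.47 and 0.48. Ndufaf4, which acts early in assembly, had 9.44, 9.24 and 9.19 in odor GFP-positive cells, against 8.71, 8.44 and 8.51 in odor GFP-negative cells. Its vehicle values were 9.51, 9.24 and 9.19 in GFP-positive cells, against 8.89, 8.90 and 8.50 in GFP-negative cells. The fractions did not overlap in either treatment, and Ndufaf4 rose 1.67-fold in odor mice (0.74, SE 0.13, limma adjusted p = 0.000401) and 1.46-fold in vehicle mice (0.55, SE 0.13, adjusted p = 0.00320).

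Ndufaf7, a methyltransferase that modifies a core subunit, had 9.34, 9.23 and 9.27 in odor GFP-positive cells, against 8.87, 8.46 and 8.56 in odor GFP-negative cells. Vehicle arrays held 9.35, 9.20 and 9.28 in GFP-positive cells, against 8.68, 8.60 and 8.22 in GFP-negative cells. Again every GFP-positive array lay above every GFP-negative one, and the rise was 1.57-fold in odor mice (0.65, SE 0.12) and 1.71-fold in vehicle mice (0.78, SE 0.12, adjusted p = 0.000271). Ndufaf5, which hydroxylates the core subunit Ndufs7, rose by 0.69 (SE 0.14) in odor mice and 0.63 (SE 0.14) in vehicle mice. Ndufaf6, another early factor, rose by 0.51 (SE 0.10) and 0.76 (SE 0.10), and Ndufaf1, of the complex that assembles the membrane arm, by 0.61 (SE 0.09) and 0.58 (SE 0.09). Ndufaf3, the partner of Ndufaf4, rose by 0.36 (SE 0.11) and 0.38 (SE 0.11). Ndufaf2, a late-stage chaperone, rose by 0.49 (SE 0.10) in odor mice and differed by 0.25 (SE 0.10, adjusted p = 0.0619) in vehicle mice, where GFP-negative replicate 2, at 7.11, lay within the GFP-positive arrays at 7.05 to 7.20.

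The core subunits of complex I carry the flavin and the iron-sulfur clusters that move electrons, and 5 of 6 were higher in GFP-positive cells of odor mice (median 0.33) and 4 of 6 in vehicle mice (median 0.32). With cyclic loess 2 of 6 were higher in each. Ndufs1, the largest subunit of the enzyme, had 10.14, 10.05 and 10.25 in odor GFP-positive cells, against 9.77, 9.45 and 9.51 in odor GFP-negative cells. Its vehicle values were 10.11, 10.20 and 10.24 in GFP-positive cells, against 9.67, 9.73 and 9.47 in GFP-negative cells. It rose by 0.57 (SE 0.10, adjusted p = 0.000443) in odor mice and 0.56 (SE 0.10, adjusted p = 0.000559) in vehicle mice, with no overlap between fractions. Ndufv1, which binds NADH and the flavin, rose by 0.44 (SE 0.09) and 0.51 (SE 0.09). Ndufs3 rose by 0.31 and 0.34 and Ndufv2 by 0.28 and 0.28, but with cyclic loess neither passed in either treatment. Ndufs7, which holds the cluster next to the quinone site, rose by 0.36 in odor mice and differed by 0.31 in vehicle mice, where it passed with the pool block (adjusted p = 0.0348), and Ndufs8, its neighbour, differed by 0.08 and 0.21.

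Accessory subunits surround that core. Of 28, 19 were higher in GFP-positive cells of odor mice (median 0.29) and 17 in vehicle mice (median 0.36), with 0 lower in either. With cyclic loess 8 were higher and 1 lower in odor mice, and 13 higher and 1 lower in vehicle mice. Ndufc2, of the membrane arm, was 1 of the firm calls: it had 10.92, 10.96 and 11.07 in odor GFP-positive cells, against 10.53, 10.32 and 10.46 in odor GFP-negative cells, and rose by 0.54 (SE 0.08) in each treatment. Ndufa9, which sits near the quinone site, rose by 0.59 (SE 0.13) in odor mice and 0.61 (SE 0.13) in vehicle mice. Ndufb6, a membrane arm subunit, rose by 0.53 (SE 0.12) and 0.64 (SE 0.12), and Ndufab1, the mitochondrial acyl carrier protein, by 0.51 (SE 0.11) and 0.54 (SE 0.11). Ndufs4, whose loss destabilises the NADH-binding end of the enzyme, rose by 0.46 (SE 0.10) and 0.58 (SE 0.10). Ndufa6 went the other way without passing the test: it had 8.87, 8.81 and 8.89 in odor GFP-positive cells, against 9.05, 8.88 and 9.21 in odor GFP-negative cells (-0.19, SE 0.08, adjusted p = 0.0640), and differed by -0.16 (SE 0.08, adjusted p = 0.135) in vehicle mice. With cyclic loess it passed as lower in both (-0.38 and -0.35).

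All 4 complex II genes were higher in GFP-positive cells in both treatments, with a median of 0.31 in odor mice and 0.32 in vehicle mice. Complex II is also the succinate dehydrogenase of the citric acid cycle and is built only from nuclear genes. Sdhb, its iron-sulfur subunit, had 10.36, 10.19 and 10.34 in odor GFP-positive cells, against 10.04, 9.80 and 9.89 in odor GFP-negative cells, a rise of 0.39 (SE 0.09, adjusted p = 0.00356). Vehicle values were 10.23, 10.24 and 10.24 in GFP-positive cells, against 9.87, 10.06 and 9.74 in GFP-negative cells, a rise of 0.35 (SE 0.09). Sdha, the flavoprotein, rose by 0.31 and 0.29, and the membrane anchors Sdhc and Sdhd rose by 0.31 and 0.35 and by 0.23 and 0.20 in odor and vehicle mice. These calls were sensitive to scaling, since with cyclic loess only Sdhb of odor mice and Sdhc of vehicle mice passed and Sdhd of vehicle mice turned to -0.01 (adjusted p = 0.944). With the pool of mice as a block, Sdhd of vehicle mice did not pass either (0.20, adjusted p = 0.0699). The Sdhd call held in only 5 of 17 alternatives in vehicle mice and in 12 in odor mice. In vehicle mice it was also lost with other blocks, a second quantile normalization and left-out arrays. The Sdha call held in 13 of 17 in vehicle mice and in 16 in odor mice.

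In complex III 5 of 9 members were higher in GFP-positive cells in each treatment, with medians of 0.29 in odor mice and 0.31 in vehicle mice, and with cyclic loess 2 and 3 were higher and 1 was lower in each. Cyc1, the cytochrome c1 subunit that hands electrons to cytochrome c, had 9.80, 9.58 and 9.66 in odor GFP-positive cells, against 9.55, 9.27 and 9.34 in odor GFP-negative cells, a rise of 0.29 (SE 0.10). The vehicle values of Cyc1 were 9.80, 9.73 and 9.63 in GFP-positive cells, against 9.25, 9.42 and 9.10 in GFP-negative cells, a rise of 0.46 (SE 0.10). Uqcrfs1, the Rieske iron-sulfur protein, rose by 0.31 (SE 0.07) and 0.33 (SE 0.07), and the small subunit Uqcrq by 0.34 (SE 0.07) and 0.31 (SE 0.07). The core protein Uqcrc2 rose by 0.31 (SE 0.08) in each treatment, and its partner Uqcrc1 by 0.34 (SE 0.13) in odor mice, with 0.33 in vehicle mice that passed with the pool block (adjusted p = 0.0249). Uqcrh, the hinge protein beside cytochrome c1, was at 11.32, 11.11 and 11.03 in odor GFP-positive cells, against 11.36, 11.23 and 11.26 in odor GFP-negative cells (-0.13, SE 0.08, adjusted p = 0.201), and at -0.09 (SE 0.08) in vehicle mice. With cyclic loess Uqcrh passed as lower in both (-0.25 and -0.23). Uqcrb, a small subunit at the quinone side, differed by 0.03 and 0.14.

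Complex IV was the most mixed of the classes. In odor mice 7 of 19 members were higher in GFP-positive cells and 1 was lower, with a median of 0.10, which turned to -0.01 with cyclic loess. In vehicle mice 6 were higher and 3 lower, with a median of 0.12, and of 0.02 with cyclic loess. These shares, 36.8% higher in odor mice and 31.6% in vehicle mice, lay near the 33.5% and 29.9% of all genes, and the odor median lay below the 0.13 of all genes. Among the 10 subunits found in most tissues, 5 were higher in odor mice and 6 in vehicle mice, with 0 lower. Ndufa4, first described in complex I and since counted with complex IV, had 10.81, 10.73 and 10.76 in odor GFP-positive cells, against 10.42, 9.93 and 10.06 in odor GFP-negative cells, a rise of 0.63 (SE 0.12, adjusted p = 0.000781). In vehicle mice it rose by 0.46 (SE 0.12). Cox5a rose by 0.39 (SE 0.08) in odor mice and 0.40 (SE 0.08) in vehicle mice, Cox5b by 0.39 (SE 0.10) and 0.28 (SE 0.10), and Cox7b by 0.36 (SE 0.12) and 0.42 (SE 0.12). Cox8a, by contrast, differed by 0.02 (SE 0.08) and -0.05 (SE 0.08), Cox6a1 by 0.08 (SE 0.11) and 0.10 (SE 0.11), and Cox4i1 by 0.08 (SE 0.08) and 0.22 (SE 0.08). With cyclic loess Cox8a passed as lower in vehicle mice (-0.21, adjusted p = 0.0389). With the pool block Cox4i1 passed in vehicle mice (adjusted p = 0.0370).

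Cox7a2l was lower in GFP-positive cells of both treatments. It is a relative of the Cox7a subunits that joins complex III to complex IV in supercomplexes rather than a subunit of every complex IV. It had 10.00, 9.84 and 9.99 in odor GFP-positive cells, against 10.31, 10.34 and 10.51 in odor GFP-negative cells. Vehicle arrays gave Cox7a2l 9.88, 9.86 and 10.04 in GFP-positive cells, against 10.15, 10.11 and 10.35 in GFP-negative cells. The fractions did not overlap, and Cox7a2l fell by 0.44 on the log2 scale in odor mice (SE 0.09, adjusted p = 0.00134) and by 0.28 in vehicle mice (SE 0.09, adjusted p = 0.0205). Its second probe set differed by -0.39 and -0.11. The vehicle call was lost without vehicle GFP-positive replicate 1 or 2, without vehicle GFP-negative replicate 4, without both GFP-positive arrays numbered 1 in the sample code, and with the mean of both probe sets (highest adjusted p = 0.0885), while the odor call held in all 17 alternatives. Cox7a2, the subunit of most tissues, rose by 0.30 (SE 0.09) and 0.36 (SE 0.09), neither of which passed with cyclic loess (0.12 and 0.17). Cox7a1, the form of heart and muscle, rose by 0.40 (SE 0.10) in odor mice and differed by 0.24 (SE 0.10, adjusted p = 0.0658) in vehicle mice. With the pool block Cox7a1 passed in vehicle mice too (adjusted p = 0.0374). Within pools, GFP-positive values were above GFP-negative values for Cox7a2 and below them for Cox7a2l in all 6.

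Among the 8 isoforms of muscle, testis, lung or low oxygen, 2 were higher and 0 lower in odor mice, and 0 were higher and 2 lower in vehicle mice. These 8, Cox7a1 among them, were dim. They averaged 6.59 to 6.85 per array, where the median of all genes was 7.46 to 7.65. Cox6b2, the testis form, had 6.55, 6.66 and 6.66 in odor GFP-positive cells, against 6.57, 6.96 and 7.01 in odor GFP-negative cells (-0.23, SE 0.13, adjusted p = 0.149). In vehicle mice it had 6.65, 6.54 and 6.35 in GFP-positive cells, against 6.77, 7.07 and 7.11 in GFP-negative cells, and fell by 0.47 (SE 0.13, adjusted p = 0.00795). Its ubiquitous partner Cox6b1 differed by 0.12 (SE 0.07) in odor mice and rose by 0.21 (SE 0.07) in vehicle mice. Cox6a2, the heart and muscle form, had 7.33, 7.54 and 7.24 in odor GFP-positive cells, against 7.32, 7.55 and 7.31 in odor GFP-negative cells (-0.03, SE 0.09). In vehicle mice it had 7.24, 7.27 and 7.17 in GFP-positive cells, against 7.62, 7.53 and 7.68 in GFP-negative cells, and fell by 0.38 (SE 0.09, adjusted p = 0.00427). The test of this difference between treatments, the interaction, was 0.36 (SE 0.13, unadjusted p = 0.0185, adjusted p = 0.971) for Cox6a2 and did not pass. Cox7b2, a testis form, lay at 4.60 to 4.91, below the lower quartile of every array (5.65 to 5.83), and rose by 0.22 (SE 0.07, adjusted p = 0.0143) in odor mice. Cox4i2, Cox8b, Cox8c and Ndufa4l2 passed in neither treatment, with differences from -0.13 to 0.28 in odor mice and from -0.03 to 0.19 in vehicle mice. Cox8b, a heart and muscle form, passed as lower in odor mice with cyclic loess (-0.23, adjusted p = 0.00893). With the pool block Cox8c passed in odor mice (adjusted p = 0.0337).

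**Figure D3:**
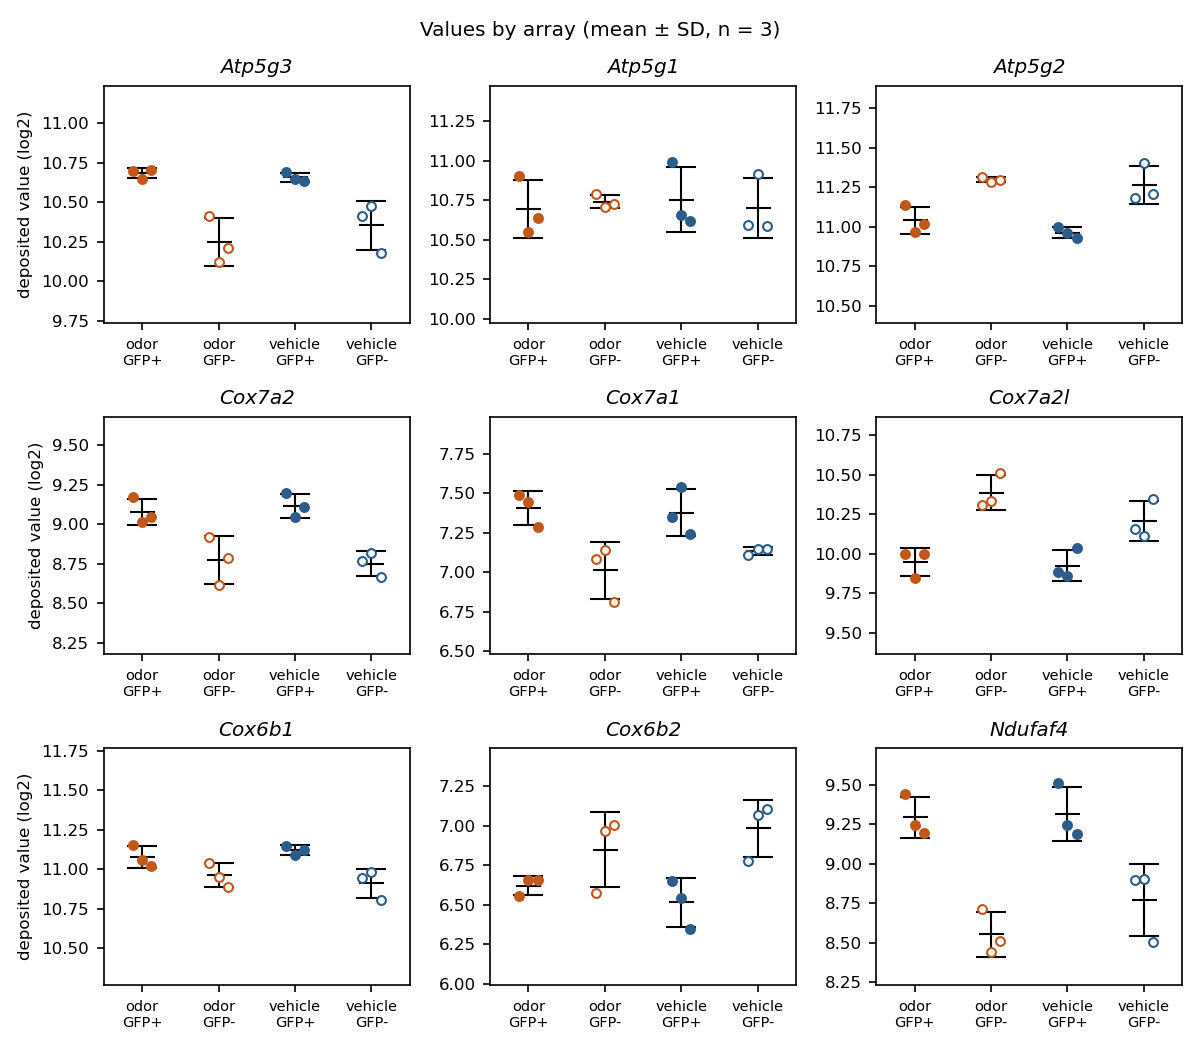
Deposited log2 values (y axis, each panel spanning the same width) of 9 members on every array, GFP-positive left of GFP-negative cells and odor left of vehicle mice. Points are arrays and bars are the mean ± SD of 3 arrays. As deposited, Atp5g3, Cox7a2 and Ndufaf4 are higher in GFP-positive cells (with cyclic loess Cox7a2, and Atp5g3 of vehicle mice, no longer pass), Atp5g2, Cox7a2l and Cox6b2 are lower there (Cox6b2 past the test only in vehicle mice), and the fractions overlap for Atp5g1.

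ATP synthase had 9 of 17 members higher and 1 lower in GFP-positive cells of odor mice (median 0.21), and 7 higher and 1 lower in vehicle mice (median 0.18). With cyclic loess 3 and 2 were higher (17.6% and 11.8%, below the 20.7% and 21.9% of all genes) and 1 was lower in each. The catalytic subunit Atp5b, among the brightest members, had 12.53, 12.49 and 12.54 in odor GFP-positive cells, against 12.38, 12.27 and 12.27 in odor GFP-negative cells, and rose by 0.21 (SE 0.08) in each treatment, a call that cyclic loess and the pool block each ended. Atp5o, which ties the catalytic head to the outer stalk, rose by 0.40 (SE 0.07, adjusted p = 0.000537) in odor mice and 0.32 (SE 0.07) in vehicle mice. Atp5md and Atp5k, small membrane subunits at the interface of ATP synthase dimers, rose by 0.42 (SE 0.16) and 0.35 (SE 0.11) in odor mice and by 0.64 (SE 0.16) and 0.50 (SE 0.11) in vehicle mice. Atp5mpl, another small membrane subunit, rose by 0.39 (SE 0.09) and 0.29 (SE 0.09).

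The 3 genes for subunit c, whose protein forms the rotating ring, went 3 ways. Their mature proteins are identical and differ only in the targeting peptide that is removed on import. Atp5g3 had 10.70, 10.65 and 10.70 in odor GFP-positive cells, against 10.42, 10.12 and 10.21 in odor GFP-negative cells, and rose by 0.43 (SE 0.09). For vehicle mice the values were 10.69, 10.65 and 10.64 in GFP-positive cells, against 10.41, 10.48 and 10.18 in GFP-negative cells, and rose by 0.30 (SE 0.09). Atp5g1 differed by -0.04 (SE 0.12) and 0.05 (SE 0.12), with overlapping fractions. Atp5g2 had 11.14, 10.96 and 11.02 in odor GFP-positive cells, against 11.31, 11.28 and 11.29 in odor GFP-negative cells, and fell by 0.26 (SE 0.08, adjusted p = 0.0132). Vehicle arrays gave Atp5g2 11.00, 10.96 and 10.93 in GFP-positive cells, against 11.18, 11.40 and 11.21 in GFP-negative cells, and fell by 0.30 (SE 0.08, adjusted p = 0.00524). All 3 Atp5g2 probe sets were lower, with differences of -0.24 to -0.26 in odor mice and -0.28 to -0.30 in vehicle mice. The odor call was lost without odor GFP-positive replicate 3 and after a second quantile normalization (highest adjusted p = 0.135), and with cyclic loess the differences were -0.38 in odor mice and -0.44 in vehicle mice, both past the test. Atp5g3 passed with cyclic loess in odor mice (0.28) and not in vehicle mice (0.13). GFP-positive values were above GFP-negative values for Atp5g3 and below them for Atp5g2 in all 6 pools. By those signs alone the Atp5g3 difference lay above that of Atp5g2 in each pool, by 0.46 to 0.84 on the log2 scale. Whether probe sets of these close relatives share transcripts was not tested.

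Odor did not change any member past the test in either fraction. Over all genes 0.00502% passed in GFP-positive cells and 0% in GFP-negative cells, by limma. In GFP-positive cells 0 of 90 members passed, with a smallest adjusted p of 1.00, and 0 had an unadjusted p under 0.05, where 259 genes in all did. The differences between odor and vehicle ran from -0.10 (Ndufaf6) to 0.14 (Cox6a2), with a median of 0.01. Their 95% intervals, which are not adjusted for the number of genes, reached from -0.41 (Atp5md) to 0.38 (Cox6b2), so no interval held a difference above 1.33-fold. Ndufs1, for one, differed by -0.04 with an interval from -0.25 to 0.18, and Ndufaf4 by -0.02 with one from -0.30 to 0.26. Odor values lay wholly above vehicle values for 2 members, Atp5mpl and Cox7b2, where 7.93% of all genes did not overlap in 1 direction or the other.

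In GFP-negative cells 0 of 90 members passed, with a smallest adjusted p of 0.732. The unadjusted p was under 0.05 for Cox6a2 alone (-0.22, SE 0.09, limma adjusted p = 0.732), where 1301 genes in all were under 0.05. The differences reached 0.18 (Cox7a2l), with a median of 0.02, and the intervals ran from -0.49 (Ndufaf4) to 0.50 (Atp5md), so none held a difference above 1.41-fold. Odor values lay wholly above vehicle values for 1 member, Cox4i1, where 7.44% of all genes did not overlap. The interaction of odor and fraction passed for 0 members, where 0.00502% of all genes passed. It had an unadjusted p under 0.05 for Cox6a2 alone, where 843 genes did, and intervals from -0.70 (Atp5md) to 0.65 (Cox6a2). In each of the alternatives run, 0 members passed in these 3 comparisons. A p that misses the threshold does not show equal levels, and the intervals give what 3 arrays a group could resolve.

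**Figure D4:**
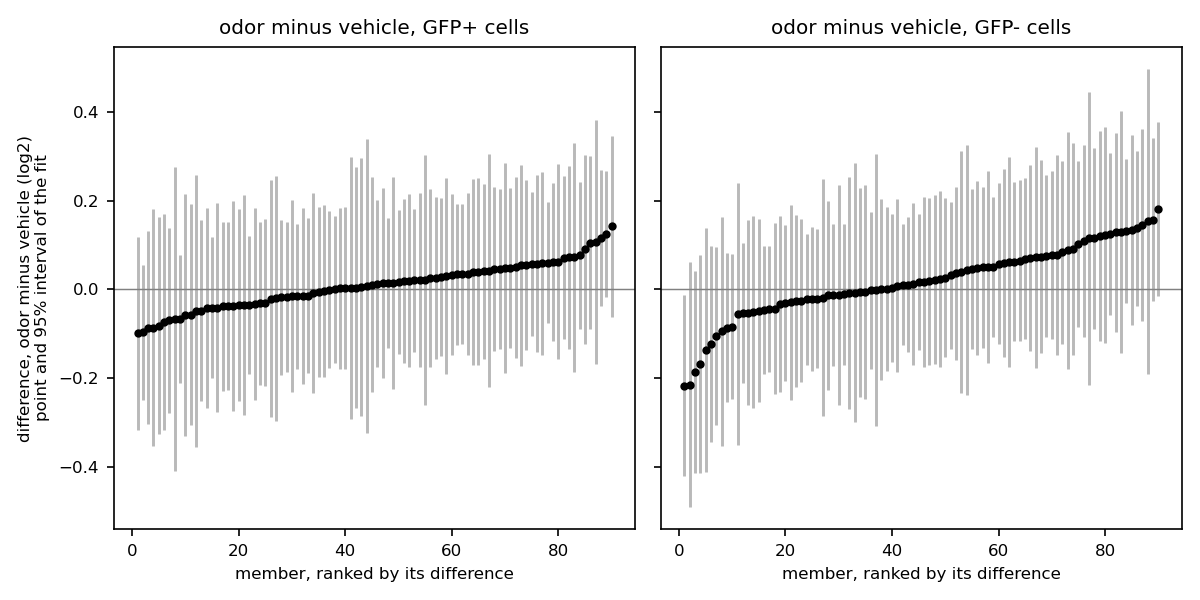
Odor minus vehicle differences (log2, y axis) of the 90 members, ranked by size (x axis), in GFP-positive cells on the left and GFP-negative cells on the right. Points are fitted differences and grey lines their 95% intervals. Differences run from -0.10 to 0.14 in GFP-positive cells and from -0.22 to 0.18 in GFP-negative cells.

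The members varied together between arrays of a group. The sample codes carry a number from 1 to 3, which the odor arrays of replicates 2, 3 and 4 and the vehicle arrays of replicates 1, 2 and 4 share in that order, and the labels do not say what it stands for. The GFP-positive arrays numbered 1 were highest of their group in both treatments for 50 of 90 members, where 15.8% of all genes were. In GFP-negative cells this held for 15 members, or 16.7%, and for 12.6% of all genes. Taken alone, the odor GFP-negative array numbered 1 was highest of its group for 69 members and the vehicle one for 16, while the GFP-positive arrays numbered 1 were highest for 65 in odor mice and 58 in vehicle mice. Over all 19938 genes the counts were 7082 and 4785 in GFP-negative cells and 7156 and 6344 in GFP-positive cells of odor and vehicle mice. The vehicle GFP-negative array numbered 1 was thus highest for a smaller share of members than of all genes. The mean over the 90 members was 9.67, 9.56 and 9.57 in odor GFP-positive cells, against 9.43, 9.28 and 9.32 in odor GFP-negative cells. It was 9.65, 9.57 and 9.56 in vehicle GFP-positive cells, against 9.34, 9.41 and 9.22 in vehicle GFP-negative cells. Each GFP-positive array lay above each GFP-negative array, with the narrowest gap within a pool in vehicle replicate 2. Without the 2 GFP-positive arrays numbered 1, 30 members were higher and 2 lower in odor mice (median 0.24), and 37 were higher and 3 lower in vehicle mice (median 0.26). Among GFP-negative arrays, mature neuron markers averaged 12.38, 12.14 and 12.05 in odor mice and 12.32, 12.31 and 12.07 in vehicle mice. Leukocyte markers there averaged 11.42, 11.67 and 11.85 in odor mice and 11.41, 11.46 and 11.69 in vehicle mice. Vehicle GFP-negative replicate 4, lowest in the members' mean, was lowest in the neuron markers and highest in the leukocyte markers of its group. Odor GFP-negative replicate 4 was likewise lowest in the neuron markers and highest in the leukocyte markers. The members' mean there was lowest in replicate 3, however (9.28, against 9.32 in replicate 4). The part of either marker set in the members' values was not tested.

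**Figure D5:**
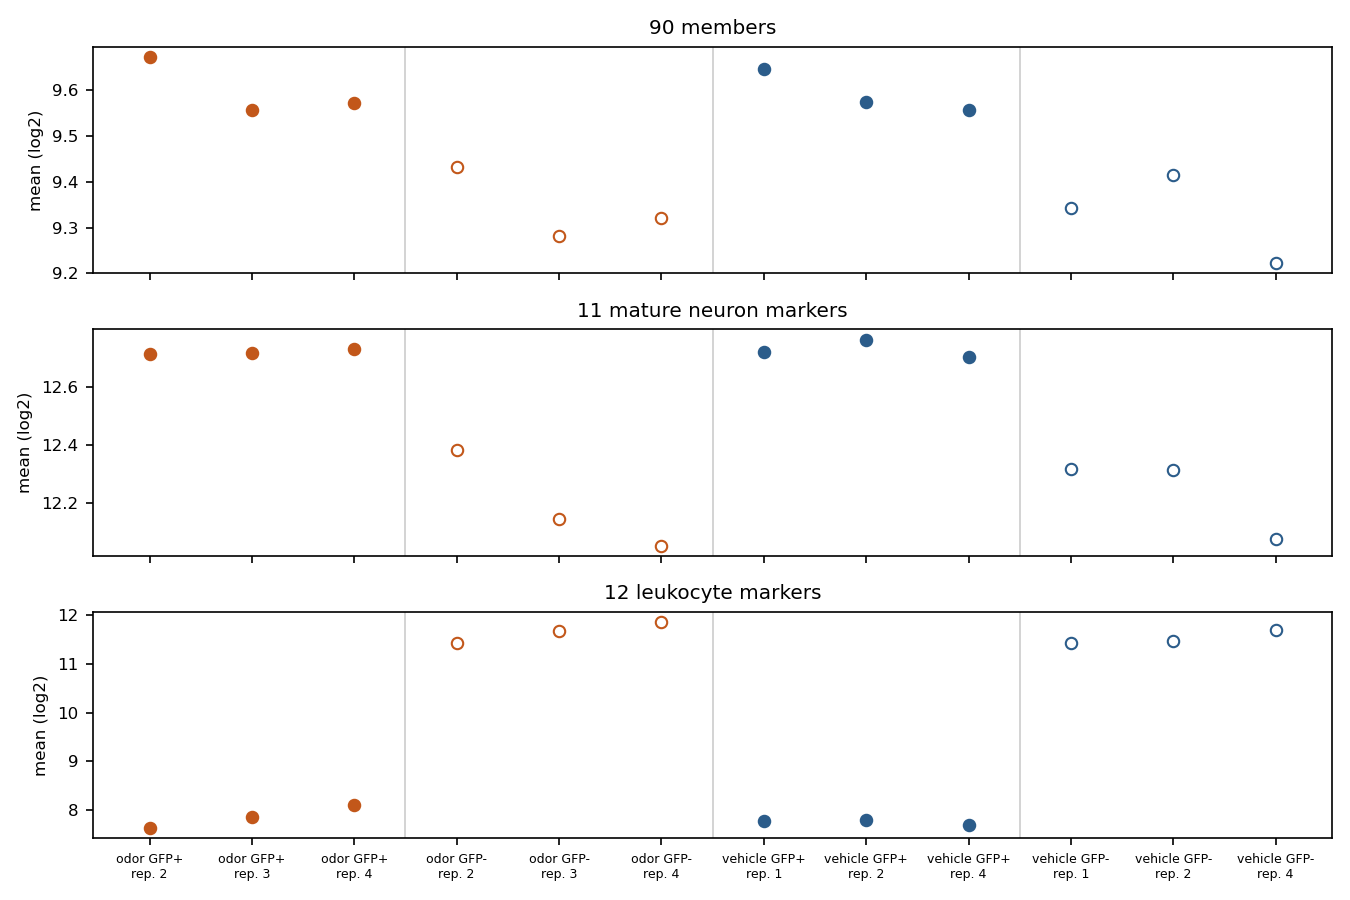
Mean log2 value on each array (y axes differ between panels) of the 90 members, the 11 mature neuron markers and the 12 leukocyte markers, with GFP-positive left of GFP-negative arrays and odor left of vehicle mice. Each point is 1 array. Members average 9.56 to 9.67 on GFP-positive arrays and 9.22 to 9.43 on GFP-negative arrays, while leukocyte markers average 7.64 to 8.10 and 11.4 to 11.9.

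Genes around the chain were read from further lists, whose counts stand beside the 33.5% and 18.7% of all genes that were higher and lower in odor mice and the 29.9% and 18.2% in vehicle mice. With cyclic loess these shares of all genes were 20.7% and 24.5% in odor mice and 21.9% and 22.5% in vehicle mice. Cycs, the somatic cytochrome c, had 11.24, 11.21 and 11.24 in odor GFP-positive cells, against 11.05, 10.73 and 10.91 in odor GFP-negative cells, and rose by 0.34 (SE 0.09) in odor mice and 0.48 (SE 0.09) in vehicle mice. Of 29 assembly factors of complexes II to V, 17 were higher and 1 lower in GFP-positive cells of odor mice, and 20 were higher and 0 lower in vehicle mice. With cyclic loess 6 and 9 were higher, so in odor mice the share of this list lay at that of all genes. Sdhaf3, for complex II, rose by 0.61 (SE 0.10) and 0.67 (SE 0.10). Bcs1l, which inserts the Rieske protein into complex III, fell by 0.48 (SE 0.14) in odor mice and differed by -0.16 (SE 0.14) in vehicle mice. Of 16 genes of the citric acid cycle and pyruvate dehydrogenase, 12 and 11 were higher and 0 were lower, and with cyclic loess 8 were higher and 1 lower in each. Idh3a, a subunit of the NAD-dependent isocitrate dehydrogenase, had 10.58, 10.57 and 10.57 in odor GFP-positive cells, against 10.12, 9.94 and 9.70 in odor GFP-negative cells, and rose by 0.65 (SE 0.11) and 0.76 (SE 0.11). Sucla2, of succinyl-CoA ligase, rose by 0.56 (SE 0.08) and 0.54 (SE 0.08).

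Glycolysis genes split. Of 14 measured, 8 were higher and 5 lower in GFP-positive cells in each treatment, and with cyclic loess 5 and 4 were higher and 5 lower. Ldha, the lactate dehydrogenase form that predominates in muscle and dividing cells, had 8.46, 8.57 and 8.57 in odor GFP-positive cells, against 10.52, 10.73 and 11.11 in odor GFP-negative cells, and fell by 2.25 (SE 0.15) in odor mice and by 2.13 (SE 0.15) in vehicle mice. Hexokinase 2 (Hk2) fell by 1.39 (SE 0.14) and 1.32 (SE 0.14), and phosphoglycerate kinase (Pgk1) by 1.09 (SE 0.13) and 0.79 (SE 0.13). The neuronal enolase Eno2 rose by 0.99 (SE 0.15) and 1.06 (SE 0.15), and the heart form of lactate dehydrogenase, Ldhb, by 0.62 (SE 0.11) and 0.38 (SE 0.11). Leukocyte, sustentacular and dividing cell markers were lower in GFP-positive cells in the same comparison, and their part in the fall of Ldha, Hk2 and Pgk1 was not tested.

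Of 15 regulators of mitochondrial biogenesis, 5 were higher and 0 lower in each treatment, which is 33.3% higher beside the 33.5% of all genes in odor mice and 29.9% in vehicle mice. With cyclic loess 2 were higher and 3 lower in odor mice and 2 higher and 1 lower in vehicle mice. Ppargc1a, the coactivator PGC-1alpha, had 10.93, 10.89 and 10.91 in odor GFP-positive cells, against 10.06, 9.82 and 9.92 in odor GFP-negative cells, and rose by 0.97 (SE 0.09) in odor mice and by 1.04 (SE 0.09) in vehicle mice. It rose with cyclic loess too, by 0.82 and 0.87. Its relative Ppargc1b rose by 0.51 (SE 0.10) and 0.59 (SE 0.10). Nrf1, whose factor binds the motif printed above, differed by 0.12 (SE 0.07) in odor mice and rose by 0.18 (SE 0.07) in vehicle mice, and Gabpa differed by -0.10 (SE 0.09) and -0.00 (SE 0.09). Ppargc1a and Ppargc1b were the 2 regulators higher with cyclic loess in each treatment, so the Nrf1 call was lost with that scaling. Of 18 carriers, porins and import genes 5 (27.8%) and 8 (44.4%) were higher and 1 was lower in each, the chaperonin Hspe1, which fell by 0.66 (SE 0.09) and 0.48 (SE 0.09). With cyclic loess 1 and 2 of the 18 were higher (5.56% and 11.1%) and 4 and 2 lower, where 20.7% and 21.9% of all genes were higher. Of 13 genes for uncoupling, creatine kinase and defence against oxygen radicals, 6 and 7 were higher and 2 lower, and with cyclic loess 5 were higher and 2 and 3 lower. The mitochondrial creatine kinase Ckmt1 rose by 0.82 (SE 0.11) and 0.74 (SE 0.11), while Gpx1, a glutathione peroxidase, fell by 3.07 (SE 0.10) and 2.83 (SE 0.10). Catalase (Cat) fell by 1.97 (SE 0.13) in odor mice and fell by 1.80 (SE 0.13) in vehicle mice. The 12 leukocyte markers, with median differences of -4.07 in each treatment, and both erythroid markers (-2.18 and -2.05) fell in the same comparison, and their part in the fall of Gpx1 and Cat was not tested.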

How the data were processed

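The log2 values per probe set on Mouse Gene 1.0 ST arrays were deposited by the authors, and the submitters' processing notes name Affymetrix Expression Console, with no version or settings in them. The values were used as deposited. Of 35556 probe sets, 21789 had 1 gene symbol, and the brightest per gene gave 19938 genes. A further 6 probe sets name a member and a second gene and were left out. One model of 4 groups (3 arrays each) was fitted in limma 3.58.1 (R 4.3.3), with no block and Benjamini-Hochberg adjustment over all genes at 0.05. Arrays give no depth, so their number limits the precision. Members, lists, tests and the rule for named genes (per class, up to 4 called members in each direction, and the isoform families) were chosen with earlier results of these data known, and motif spellings after counts of several. Outside that rule, Ndufaf3, Ndufa6, Uqcrh, Uqcrb, Atp5b, Ldhb, Nrf1 and Gabpa were named after their values were seen. Promoters came from RefSeq (GRCm38.p6). The test of odor against vehicle in GFP-positive cells was checked on simulated data with independent arrays. The planted differences were larger than those of the members in that comparison, so its power for differences of their size was not checked. Alternatives were other scalings, priors, blocks, filters, probe-set means and left-out arrays. Both arrays of a pool come from the same mice, as the labels' count of animals implies, and their deviations from the group means correlated with r of 0.12 to 0.25 in odor pools and 0.07 to 0.11 in vehicle pools.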

Additional observations from a re-analysis of the deposited data

How the results depend on the processing

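Cyclic loess changed the sort comparison most, to 31 members past the threshold in odor mice and 35 in vehicle mice, where 58 and 53 passed as deposited, with member medians of 0.13 in each (0.127 and 0.131). It also turned Sdhd of vehicle mice to -0.0068. Without both GFP-positive arrays numbered 1 in the sample code, chosen after the data were seen, 32 members passed in odor mice, with a median of 0.24 (0.235), and 40 in vehicle mice. Leaving out 1 array at a time gave 41 to 58 members in odor mice (medians 0.235 to 0.316) and 39 to 60 in vehicle mice. With the pool of mice as a replicate block 57 and 56 members passed in odor and vehicle mice, with the title number 61 and 59, and with the code number 58 and 59. Among the 90 members the pool block ended 2 higher calls in odor mice (Atp5b, Ndufb8) and 2 in vehicle mice (Atp5b, Sdhd), and added 1 in odor mice (Cox8c) and 5 in vehicle mice (Cox4i1, Cox7a1, Ndufs7, Uqcrc1, Atp5j2). It also ended the call of Cyct, the testis cytochrome c, in odor mice (0.25, adjusted p = 0.0543). Over 17 alternatives, 26 of 56 higher calls in odor mice and 28 of 49 in vehicle mice held throughout, as did 1 of 2 and 3 of 4 lower calls. In all, 5275 values of 301 named-gene results kept their side of the threshold in 5102 cases, lost it in 146, gained it in 26 and reversed in 1. The cause of these changes was not tested. Arrays of the same code number correlated across treatments in GFP-positive cells (r of 0.31, 0.19 and 0.27). In GFP-negative cells this was mixed, with r of 0.44, -0.21 and 0.28. As a replicate block on the GFP-positive arrays alone, the code number gave 0 members for odor against vehicle. Precision rests on 3 arrays a group and on dim values for the tissue isoforms.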

Other observations

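Probe sets that name a member together with a second gene were kept out of the counts. The 2 for Ndufb4 and Ndufb4b, accessory subunit genes of complex I, were higher in GFP-positive than in GFP-negative cells by 0.51 and 0.49 in odor mice and by 0.47 and 0.43 in vehicle mice. The 3 for Cox7c and Gm12338 differed by 0.08 to 0.09 in odor mice and 0.15 to 0.21 in vehicle mice. These are differences of group means with no test. Among members with several probe sets, 1 of 17, Uqcrb, had probe sets that differed in sign in odor mice, and 0 did in vehicle mice.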
